A study of Arabidopsis thaliana with 17 samples.

Results

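The phi and tau classes of glutathione transferases were described across a wounding time course in Arabidopsis thaliana. All 41 genes named GSTF2 to GSTF14 (13 phi) and GSTU1 to GSTU28 (28 tau) were taken by locus identifier from a table of 28642 genes, and all 41 were found there. Seedlings were raised in darkness on MS-0 plates, their hypocotyls were cut, and the pieces stayed in the dark for 0, 1, 3, 6, 12 or 24 h before RNA was extracted and sequenced with a stranded mRNA kit. There were 3 libraries at each time and 2 at 24 h. The sources used here give neither the strain nor the age of the plants, all groups were cut, and no later library came from uncut hypocotyls, so the effect of the cut and that of time on the plate cannot be told apart. Nothing in the labels says that libraries of a time came from separate plants, so the p-values below measure the spread between these samples, which may be technical.

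Glutathione transferases join the tripeptide glutathione to reactive or foreign compounds, which marks the product for transport into the vacuole and further breakdown. The phi and tau classes are the large, plant-typical groups of the family. Their genes are known as targets of detoxification and defence signals, many through TGA-type bZIP transcription factors that bind the letters TGACG. Members have also been assigned work in metabolism: GSTF6 in making the antimicrobial compound camalexin, GSTF12 in carrying anthocyanins and related flavonoids to the vacuole, and GSTU13 in the breakdown of indole glucosinolates. GSTF11 and GSTU20 are placed in aliphatic glucosinolate synthesis.

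In the TAIR10.1 annotation, 29 of the 41 genes stood in 9 tandem arrays and 12 stood alone. The array with most members held GSTU1 to GSTU7 within 14.6 kb on chromosome 2 (chr2:12617936-12632538), and GSTU19 to GSTU23 spanned 20.6 kb on chromosome 1. Smaller arrays held GSTF4 to GSTF7, GSTF9 with GSTF10, GSTU11 with GSTU12, GSTU13 with GSTU14, GSTU15 with GSTU16, GSTU17 with GSTU18, and GSTU24 to GSTU26. All 28 tau genes had 2 exons, whereas 9 of the 13 phi genes had 3. Coding sequences of genes in the same array were a median of 74.0% identical over 45 pairs. The median was 55.2% for the 411 pairs of the same class that do not share an array and 47.8% for 364 pairs between the classes.

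The window from 250 bases before to 50 bases after the annotated start was searched on both strands in all 41 genes and in 27443 promoters of the RefSeq TAIR10.1 annotation. TGACG was present in 17 of 41 windows, against 23.1% of all promoters, and 3 members (GSTU1, GSTU7 and GSTU9) held more than 1 copy, against 4.44% of all. Of the 21 TGACG matches 1 overlapped a match to TTGAC, the core of the W-box bound by WRKY factors, which was present in 25 of 41 windows and in 50.5% of all promoters. The ABA-related G-box CACGTG was present in 3 members and in 7.68% of all promoters, and the ethylene-related GCC box GCCGCC in 4 members and in 2.57%. The 200 bases before the start follow for the early members GSTF8, GSTU5 and GSTU6, for the 3 members with more than 1 copy, and for the array of GSTU24, GSTU25 and GSTU26, whose members parted in time. Each is RefSeq sequence read 5′ to 3′ towards its gene, and capitals mark TGACG or, where the match is on the other strand, CGTCA.
GSTF8 (chr2:19556126-19556325, plus strand): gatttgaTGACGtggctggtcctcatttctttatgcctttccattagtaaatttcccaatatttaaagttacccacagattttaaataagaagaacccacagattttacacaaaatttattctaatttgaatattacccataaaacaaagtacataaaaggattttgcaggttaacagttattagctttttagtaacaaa
GSTU5 (chr2:12625791-12625990, minus strand): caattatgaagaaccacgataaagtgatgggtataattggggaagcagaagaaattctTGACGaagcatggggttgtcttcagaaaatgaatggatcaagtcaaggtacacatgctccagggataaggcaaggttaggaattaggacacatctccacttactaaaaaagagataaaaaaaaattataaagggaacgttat
GSTU6 (chr2:12621232-12621431, minus strand): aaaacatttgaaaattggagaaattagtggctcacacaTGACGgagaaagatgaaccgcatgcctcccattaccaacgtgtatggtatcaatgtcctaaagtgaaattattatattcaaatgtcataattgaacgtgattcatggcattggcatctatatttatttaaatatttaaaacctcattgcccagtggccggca
GSTU1 (chr2:12632539-12632738, minus strand): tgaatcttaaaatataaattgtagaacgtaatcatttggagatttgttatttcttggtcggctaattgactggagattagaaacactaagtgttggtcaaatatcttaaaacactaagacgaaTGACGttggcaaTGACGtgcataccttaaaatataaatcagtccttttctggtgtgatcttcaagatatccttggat
GSTU7 (chr2:12618900-12619099, minus strand): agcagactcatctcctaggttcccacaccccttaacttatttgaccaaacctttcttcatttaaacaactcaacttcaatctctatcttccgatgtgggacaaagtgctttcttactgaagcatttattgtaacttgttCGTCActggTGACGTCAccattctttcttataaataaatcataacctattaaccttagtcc
GSTU9 (chr5:25089627-25089826, minus strand): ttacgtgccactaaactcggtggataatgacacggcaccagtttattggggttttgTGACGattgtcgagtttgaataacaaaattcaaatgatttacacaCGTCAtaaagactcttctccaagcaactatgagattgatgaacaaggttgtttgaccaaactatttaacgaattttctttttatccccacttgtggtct
GSTU24 (chr1:5869343-5869542, plus strand): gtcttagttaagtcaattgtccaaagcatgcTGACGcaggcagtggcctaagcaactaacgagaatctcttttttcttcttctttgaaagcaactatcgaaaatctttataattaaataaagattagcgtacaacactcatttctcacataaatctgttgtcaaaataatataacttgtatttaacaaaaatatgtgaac
GSTU25 (chr1:5871824-5872023, plus strand): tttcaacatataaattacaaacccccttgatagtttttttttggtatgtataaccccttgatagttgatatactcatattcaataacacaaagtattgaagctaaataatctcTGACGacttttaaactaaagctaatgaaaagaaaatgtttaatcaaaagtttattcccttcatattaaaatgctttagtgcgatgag
GSTU26 (chr1:5875095-5875294, plus strand): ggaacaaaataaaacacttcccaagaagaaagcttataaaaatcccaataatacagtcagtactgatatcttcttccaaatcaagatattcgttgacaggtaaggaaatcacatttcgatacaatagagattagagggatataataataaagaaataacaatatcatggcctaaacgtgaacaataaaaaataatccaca
GSTU7 carries its 3 matches close together, and the stretch of GSTU26 has none. The GSTU7 matches at 52 and 49 bases before the start overlap in TGACGTCA, which reads alike on both strands, and were counted separately. A match is a description of letters and not of a bound site.

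Closely similar copies limit how reads can be divided. GSTF2 and GSTF3 were 94.5% identical over their coding sequences although they lie on chromosomes 4 and 2, and the array neighbours GSTF6 and GSTF7 were 94.3% identical. The 90-base coding stretches in which each pair differed most are shown in TAIR10.1 sequence, with differing bases in capitals. They are coding bases 311 to 400 of GSTF2 and GSTF3, which differ at 13 positions, and coding bases 177 to 266 of GSTF6 and GSTF7, which differ at 12 positions.
GSTF2 (chromosome 4): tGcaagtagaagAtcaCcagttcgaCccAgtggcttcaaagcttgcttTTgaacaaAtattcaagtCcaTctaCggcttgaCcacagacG
GSTF3 (chromosome 2): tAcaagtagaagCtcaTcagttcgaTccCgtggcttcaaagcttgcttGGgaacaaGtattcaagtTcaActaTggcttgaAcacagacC
GSTF6 (chromosome 1): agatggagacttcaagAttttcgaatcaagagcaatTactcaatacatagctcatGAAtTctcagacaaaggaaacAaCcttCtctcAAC
GSTF7 (chromosome 1): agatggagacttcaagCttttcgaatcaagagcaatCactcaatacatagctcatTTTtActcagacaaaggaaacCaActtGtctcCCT
Stretches of 50 bases that also occur in another member made up 13.1% of the GSTF6 transcript and 9.19% of the GSTF7 transcript, 2.46% and 3.51% of GSTF2 and GSTF3, and 1.98% and 2.27% of GSTU17 and GSTU18, and none was found in the other 35 members. How the authors treated reads that fit more than 1 gene is not stated in those sources, so values of GSTF6 and GSTF7 are uncertain to the extent that reads were split between them. GSTF2, GSTF4, GSTF11, GSTU2 and GSTU7 are covered over most of their length by a gene on the opposite strand, and GSTU17 overlaps GSTU18 by 71 bases on the same strand. Whether reads were counted by strand is not given either.

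Levels are given in RPKM, reads scaled to transcript length and to the mapped reads of the library. Recovered library totals were 20740957 mapped reads for 0 h replicate 1, 11760741 and 11736568 for the 24 h pair, and 7717255 to 7872179 for the other 14, so that 3 reads on a 1-kb transcript equal 0.145 to 0.389 RPKM (counting error only). Shoot apex markers summed to 0.0934 to 3.06 RPKM, while phloem markers summed to 44.6 to 75.0 RPKM and xylem markers to 61.9 to 207 RPKM, with the lowest xylem sums at 24 h. Other markers moved more with time. The cambium marker PXY was at 58.1 to 65.9 RPKM at 0 h, 7.06 to 8.37 at 1 h and 43.3 to 49.7 at 24 h. Epidermis markers summed to 6.86 to 12.0 RPKM at 0 h and 1.14 to 3.14 at 24 h. The endodermis marker CASP1 was at 1.65 to 9.11 RPKM at 6 h and 115 to 132 at 24 h. In 12 h replicate 1 the 3 light-leaf markers summed to 193 RPKM, against 13.8 RPKM in the lowest 12 h library, with RBCS1A at 96.2 and LHCB1.3 at 89.4 RPKM in replicate 1. 0 h replicate 3 was the lowest 0 h library for 20 of 34 tested members, against 41.2% of all tested genes, and the endodermis marker CASP1 was at 8.63 RPKM there, against 104 and 84.5 RPKM in replicates 1 and 2. The part of these differences in the results was not tested.

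These genes took a larger share of reads after the cut, with the tau share highest at 1 h and the phi share at 6 h. At 0, 1, 3, 6, 12 and 24 h, tau members took 0.143% ± 0.0123, 1.00% ± 0.0277, 0.695% ± 0.0491, 0.730% ± 0.0174, 0.355% ± 0.0217 and 0.188% ± 0.00720 of mapped reads (SD, n = 3, and n = 2 for 24 h). Phi members took 0.276% ± 0.0497, 0.615% ± 0.0217, 1.10% ± 0.0456, 2.28% ± 0.270, 1.49% ± 0.0952 and 0.762% ± 0.0460 at the same times. The tau share exceeded the phi share in every 1 h library (0.980% to 1.03%, against 0.590% to 0.630% for phi), and the phi share exceeded the tau share in every library of the other 5 times. The tau lead at 1 h rests on 1 gene, GSTU5. It gave 30829, 30051 and 31643 of the 79814, 76382 and 77321 tau reads in the 1 h libraries. Phi members had 48608, 48706 and 45698 reads there, so without GSTU5 the classes would be about level at 1 h. Together the 41 genes held 3.01% ± 0.261 of mapped reads at 6 h, against 0.420% ± 0.0614 at 0 h. These bulk shares cannot tell more expressing cells from more RNA per cell.

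**Figure D1:**
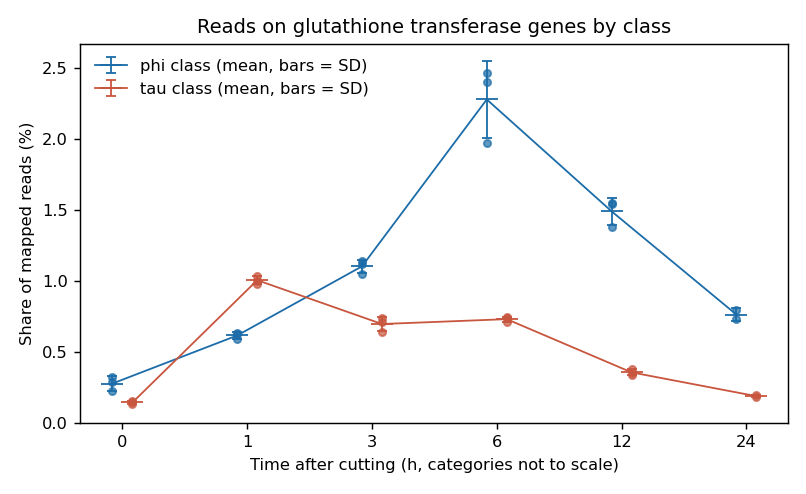
Share of mapped reads (%) on the 13 phi and 28 tau genes at each time after cutting, with 1 point per library, means as horizontal marks joined by lines and SD as bars. The tau share is highest at 1 h (1.00%) and the phi share at 6 h (2.28%). GSTU5 alone holds 24.6% of the reads on all these genes at 1 h, and the tau lead at that time rests on it.

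The leading member changed with time. Among reads on the 41 genes, GSTF9 was first at 0 h with 22.9%, GSTU5 at 1 h with 24.6%, and GSTF2 at 6 and 12 h with 22.7% and 25.3%. After 3 h, GSTF2 held 16.5% and GSTU19 16.2%, and GSTU19 had more reads than GSTF2 in 2 of the 3 libraries. GSTF9 led again at 24 h with 25.0%. GSTU5 held 1.49% of member reads at 0 h, and GSTF7, second at 6 h with 19.9%, held 0.858% at 0 h.

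In the gene-by-gene test (limma on log2 of RPKM + 1, over the 19656 genes of at least 1 RPKM in at least 2 libraries), 34 members could be tested, 9 phi and 25 tau. At 1 h, 22 members were higher and 4 lower than at 0 h at an adjusted p under 0.05, against 18.2% of all tested genes higher and 54.7% lower. At 3 h, 24 members were higher and 1 was lower (27.6% and 39.3% of all genes). The 6 h counts were 24 and 3 (30.2% and 37.1%), the 12 h counts 25 and 4 (34.4% and 27.8%), and the 24 h counts 20 and 5 (36.2% and 23.2%). A ± after a log2 change is its SE throughout, from 3 libraries a time and 2 at 24 h. With the further condition of a 2-fold change, 19, 21, 24, 20 and 16 members were higher at 1, 3, 6, 12 and 24 h, against 10.3%, 11.6%, 12.0%, 11.0% and 11.2% of all genes. Leaving out 1 h replicate 3 took the 1 h count of lower members to 1, leaving out 3 h replicate 3 or 12 h replicate 1 took the 3 h count to 2, and leaving out 24 h replicate 1 took the 24 h count to 3.

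The median of all tested genes itself shifted by -0.36 (log2) at 1 h and by -0.12, -0.07, 0.06 and 0.14 at 3, 6, 12 and 24 h, so class medians are given relative to it. Centring each library on its median turned the 1 h split of all genes to 25.0% higher and 33.9% lower. The tau median stood 2.16, 2.53, 2.67, 1.45 and 0.85 above the median of all genes at 1, 3, 6, 12 and 24 h. The phi median stood 0.62, 2.12, 2.67, 1.11 and 0.57 above it. Without such centring, 17 of the 25 tested tau members and 5 of the 9 tested phi members were higher at 1 h, against 18.2% of all tested genes. The phi median rests on 9 genes and moves with the filter: without a filter the 4 phi genes of very low level enter and it is 0.11 at 3 h and 1.14 at 6 h, and with a filter of 5 RPKM it is 1.22 at 1 h. No test between the classes was made, since members of a class are not replicates.

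**Figure D2:**
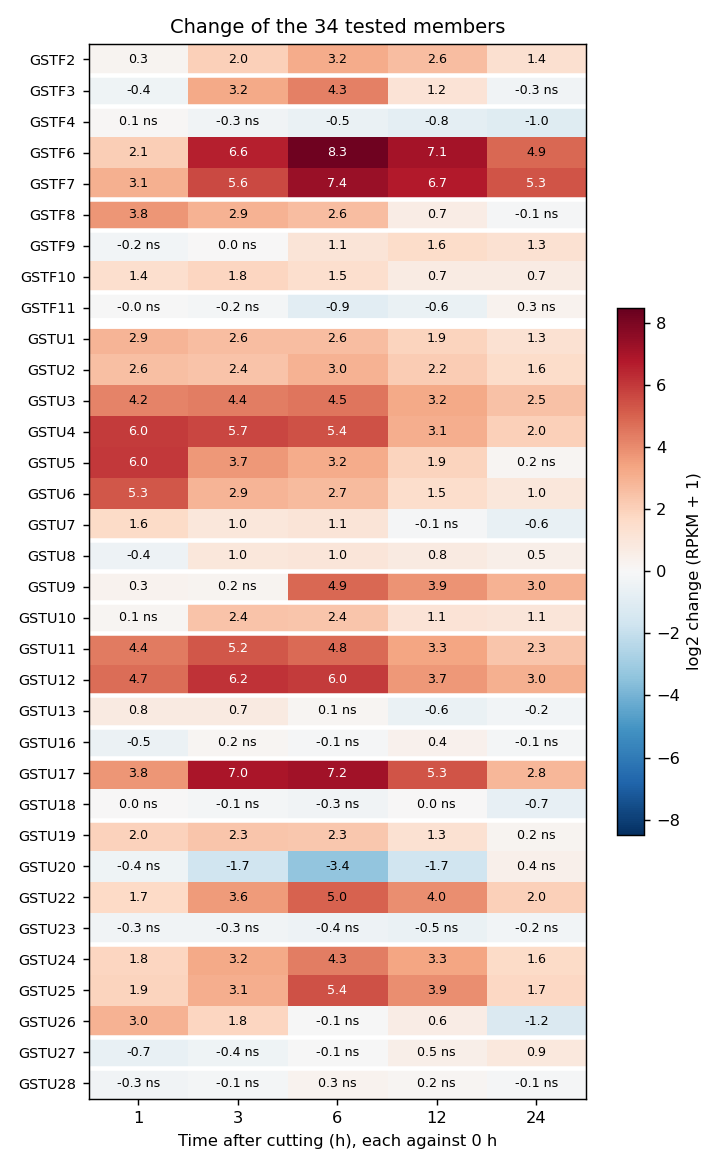
Log2 change (RPKM + 1) of the 34 tested members at 1, 3, 6, 12 and 24 h, each against 0 h, ordered by class and array, with white lines between arrays and single genes and "ns" at values that did not pass an adjusted p of 0.05. GSTF6 at 6 h (8.29) is the highest value and GSTU20 at 6 h (-3.38) the lowest.

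Peak times were spread over the course in both classes. In order of time, 0, 2, 1, 4, 1 and 1 phi members and 1, 7, 4, 9, 2 and 2 tau members had their highest mean at 0, 1, 3, 6, 12 and 24 h. The tau member highest at 0 h was GSTU23. Over all tested genes the shares in the same order were 25.8%, 12.9%, 11.6%, 9.03%, 13.6% and 27.1%. Between neighbouring times, 14 members were higher and 8 lower at 3 h than at 1 h (38.0% and 22.2% of all genes), and 10 were higher and 7 lower at 6 h than at 3 h (19.2% and 14.4%). At 12 h, 4 members were higher and 21 lower than at 6 h (32.1% and 16.5% of all genes), and at 24 h, 3 were higher and 23 lower than at 12 h (10.3% and 8.11%). An F test over the whole course called 32 of 34 members, against 93.2% of all genes, a share near the background. The 2 it left out were GSTU23 and GSTU28.

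GSTF6 and GSTF7 had the largest changes of all members on the log2(RPKM + 1) scale. As a ratio of mean RPKM, GSTU17 at 6 h (196) stood between GSTF6 (320.2) and GSTF7 (169). GSTF6 (AT1G02930) had 15.7, 18.3 and 7.32 RPKM at 0 h, then 59.4, 72.3 and 46.0 after 1 h, 1417, 1200.2 and 1370.0 after 3 h, 4787, 4954 and 3509 after 6 h, 1933, 1916 and 1750.2 after 12 h, and 468 and 343 after 24 h. GSTF7 (AT1G02920) had 41.9, 34.4 and 38.8 RPKM at 0 h, then 333, 341 and 302 after 1 h, 1991, 1835 and 1929 after 3 h, 6959.7, 7175 and 5372 after 6 h, 4375, 4277 and 3889 after 12 h, and 1836 and 1345 after 24 h. In both genes every later library lay above every 0 h library, and the 6 h libraries were the highest. The log2 change at 6 h from 0 h was 8.29 ± 0.26 (SE, adjusted p = 2.27e-12) for GSTF6 and 7.36 ± 0.12 (SE, adjusted p = 1.78e-15) for GSTF7, ratios of mean RPKM of 320.2 and 169. Both were still higher at 24 h, by 4.85 ± 0.29 (log2) for GSTF6 and 5.32 ± 0.14 for GSTF7. With the RPKM of both genes summed, the level was 10919 ± 1775 RPKM at 6 h, against 52.2 ± 5.79 RPKM at 0 h (SD, n = 3 each). The log2 change of this sum was 7.67 ± 0.13 (SE, adjusted p = 2.37e-15). The division of reads between the genes still enters the sum, since their recovered lengths differ (1078 bases for GSTF6 and 925 for GSTF7). Reads left out or counted for both genes would enter it too.

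Their array neighbour GSTF4 was lower at 6, 12 and 24 h and was called in neither direction at 1 and 3 h. GSTF4 (AT1G02950) had 91.8, 107 and 112 RPKM at 0 h, then 108, 105 and 128 after 1 h, 81.2, 74.4 and 95.0 after 3 h, 62.4, 75.7 and 76.2 after 6 h, 43.3, 68.6 and 63.6 after 12 h, and 48.1 and 53.3 after 24 h. All libraries of 6, 12 and 24 h lay below every 0 h library, and those of 1 and 3 h overlapped them. The log2 change was -0.53 ± 0.15 (SE, adjusted p = 0.00537) at 6 h and -1.01 ± 0.17 (SE, adjusted p = 9.18e-05) at 24 h. A long non-coding RNA gene on the opposite strand covers 1014 of its 1353 bases. GSTF5, the fourth gene of the array, was at 0 to 0.660 RPKM and could not be tested.

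GSTF2, a ligand-binding phi enzyme, had the highest mean level of all members. GSTF2 (AT4G02520) had 878, 742 and 656 RPKM at 0 h, then 912, 899 and 886 after 1 h, 3134, 2812 and 3076 after 3 h, 7185, 7516 and 5994 after 6 h, 4724, 4941 and 4516 after 12 h, and 2042 and 1918 after 24 h. Every later library lay above every 0 h library, by little at 1 h, and those of 6 h were the highest. The log2 change at 6 h was 3.19 ± 0.10 (SE, adjusted p = 6.85e-13). At 1 h the change of 0.25 ± 0.10 passed the test but was lost when any 1 of 0 h replicate 2, 0 h replicate 3 or the 3 libraries of 1 h was left out (0.16, adjusted p = 0.164, without 0 h replicate 3), and after quantile normalization (0.05). The opposite-strand neighbour covers 1442 of its 1691 bases.

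GSTF3 had the same peak at a far lower level. GSTF3 (AT2G02930) had 3.59, 3.53 and 5.83 RPKM at 0 h, then 2.90, 3.69 and 2.61 after 1 h, 50.6, 41.9 and 50.4 after 3 h, 96.8, 123 and 85.8 after 6 h, 10.4, 11.0 and 11.0 after 12 h, and 3.17 and 3.27 after 24 h. The 3, 6 and 12 h libraries lay above the 0 h range, those of 1 h overlapped it and those of 24 h lay just below it. Its log2 change was 4.28 ± 0.16 (SE, adjusted p = 3.09e-12) at 6 h, and the 1 h value (-0.37 ± 0.16, adjusted p = 0.0445) lost its call without 0 h replicate 3 (-0.17, adjusted p = 0.267) and without each of 10 other libraries in turn. Summed, GSTF2 and GSTF3 changed by 3.20 ± 0.10 (log2) at 6 h, against 3.19 for GSTF2 alone.

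GSTF8, a gene known for a TGACG-type element in its promoter, peaked at 1 h. GSTF8 (AT2G47730) had 84.4, 103 and 68.3 RPKM at 0 h, then 1040.4, 1279 and 1147 after 1 h, 629.9, 639 and 704 after 3 h, 422, 518 and 628 after 6 h, 118, 133 and 152 after 12 h, and 78.4 and 76.9 after 24 h. It was highest in the 1 h libraries and back within the 0 h range by 24 h. Fitted log2 changes were 3.76 ± 0.15 (SE, adjusted p = 6.99e-12) at 1 h and -0.12 ± 0.17 at 24 h, the second not past the test. A gene on the same strand overlaps 516 of its 3160 bases.

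GSTF9 and GSTF10 lie within 3.8 kb on chromosome 2, and GSTF9 had the highest 0 h level of all members, but their courses parted. GSTF9 (AT2G30860) had 1195, 1027 and 769.9 RPKM at 0 h, then 1023, 785 and 775 after 1 h, 1056, 917 and 1027 after 3 h, 2335, 2112 and 1973 after 6 h, 3271, 2962 and 2564 after 12 h, and 2373 and 2502 after 24 h. GSTF10 (AT2G30870) had 894, 779 and 561 RPKM at 0 h, then 2119, 1880.1 and 1826 after 1 h, 2655, 2616 and 2515 after 3 h, 2123, 2085 and 1832 after 6 h, 1266, 1283 and 1019 after 12 h, and 1234 and 1168 after 24 h. GSTF10 was high at 1 and 3 h, where GSTF9 libraries overlapped those of 0 h, and GSTF9 was highest at 12 h, when GSTF10 had come down to 1189.5 ± 148 RPKM (SD, n = 3). The log2 change at 3 h was 1.83 ± 0.14 (SE, adjusted p = 8.53e-09) for GSTF10 and 0.02 ± 0.15 for GSTF9. At 12 h it was 0.69 ± 0.14 for GSTF10 and 1.57 ± 0.15 (SE, adjusted p = 1.68e-07) for GSTF9. The mean log2 ratio of GSTF9 to GSTF10 within a library was 0.42, -1.18, -1.38, 0.09 and 1.02 at 0, 1, 3, 6 and 24 h, so that the more abundant gene of the pair changed between 0 and 1 h and again by 6 h.

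GSTF11 was scarce throughout, with 35, 6 and 7 recovered reads in the 0 h libraries and 1, 3 and 1 in those of 6 h. GSTF11 (AT3G03190) had 2.11, 0.958 and 1.12 RPKM at 0 h, then 1.62, 1.13 and 1.29 after 1 h, 0.963, 1.59 and 0.799 after 3 h, 0.160, 0.480 and 0.161 after 6 h, 0.478, 0.957 and 0.319 after 12 h, and 2.45 and 1.39 after 24 h. The 6 and 12 h libraries were below the 0 h range and the others overlapped it. Relative to 0 h, the log2 change was -0.90 ± 0.22 (SE, adjusted p = 0.00190) at 6 h and -0.59 ± 0.22 (SE, adjusted p = 0.0297) at 12 h, and the 12 h value became -0.38 (adjusted p = 0.158) without 0 h replicate 1 and -0.55 (adjusted p = 0.0764) without 12 h replicate 1, and it also lost its call without 12 h replicate 3. A gene on the opposite strand covers all 1096 bases.

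Among tau genes, every member of the array of GSTU1 to GSTU7 was higher at 1 h, by unequal amounts. The log2 changes at 1 h ran from 1.63 for GSTU7 to 6.04 for GSTU5. All 7 were higher at 1, 3 and 6 h, 6 of 7 at 12 h and 5 of 7 at 24 h, when GSTU7 was lower. Of all tested genes, 18.2%, 27.6%, 30.2%, 34.4% and 36.2% were higher at 1, 3, 6, 12 and 24 h, and 23.2% were lower at 24 h. The array's median log2 change was 4.22, 2.92, 2.98, 1.91 and 1.28 at those 5 times, against medians of all genes between -0.36 and 0.14.

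GSTU5 was the most abundant member at 1 h. GSTU5 (AT2G29450) had 47.5, 81.0 and 67.0 RPKM at 0 h, then 4277, 4127 and 4374 after 1 h, 638, 942 and 941 after 3 h, 501, 527 and 715 after 6 h, 221, 239 and 267 after 12 h, and 72.7 and 71.1 after 24 h. All 1 h libraries were at least 4 times above every other library, and those of 24 h were within the 0 h range. The log2 change was 6.04 ± 0.18 (SE, adjusted p = 5.18e-13) at 1 h and 0.17 ± 0.20 at 24 h, the second not past the test.

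GSTU6, next in the array, had the same sharp course. GSTU6 (AT2G29440) had 37.9, 44.3 and 27.6 RPKM at 0 h, then 1588, 1348 and 1424 after 1 h, 244, 303 and 292 after 3 h, 230.2, 217 and 256 after 6 h, 101, 109 and 102 after 12 h, and 72.0 and 73.0 after 24 h. Its 1 h libraries stood above all others and its 24 h libraries stayed above the 0 h range. Its log2 change was 5.30 ± 0.13 (SE, adjusted p = 3.63e-14) at 1 h, and the change at 3 h relative to 1 h was -2.36 ± 0.18 for GSTU5 and -2.38 ± 0.13 for GSTU6.

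GSTU4 was higher at all 5 later times. GSTU4 (AT2G29460) had 6.39, 8.44 and 4.07 RPKM at 0 h, then 481, 413 and 420.2 after 1 h, 314, 375 and 401 after 3 h, 299, 330.3 and 288 after 6 h, 48.7, 64.6 and 64.0 after 12 h, and 27.4 and 27.6 after 24 h. Every 3 and 6 h library lay below every 1 h library, and all later libraries lay above those of 0 h. Fitted log2 changes were 5.95 ± 0.17 (SE, adjusted p = 3.15e-13) at 1 h and 5.44 ± 0.17 at 6 h.

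GSTU1, GSTU2 and GSTU3 were likewise still high at 6 h. At 0, 1, 6 and 24 h, GSTU1 averaged 47.0 ± 5.16, 346 ± 5.99, 288 ± 10.4 and 115 ± 8.15 RPKM, GSTU2 5.86 ± 1.24, 39.1 ± 4.09, 52.6 ± 3.24 and 19.2 ± 0.731, and GSTU3 3.75 ± 0.547, 88.0 ± 14.3, 109 ± 22.7 and 25.6 ± 1.37 (SD, n = 3, and n = 2 for 24 h). All later libraries of these 3 genes lay above the 0 h libraries. Log2 changes at 24 h were 1.28 ± 0.11, 1.58 ± 0.16 and 2.49 ± 0.17 for GSTU1, GSTU2 and GSTU3, all past the test.

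GSTU7, at the end of the array, had the highest level of the 7 at 0 h and the smallest peak change. GSTU7 (AT2G29420) had 158, 167 and 163 RPKM at 0 h, then 503, 518 and 497 after 1 h, 308, 323 and 342 after 3 h, 329, 370.5 and 338 after 6 h, 151, 153 and 161 after 12 h, and 98.4 and 109 after 24 h. The 1, 3 and 6 h libraries lay above the 0 h range, those of 12 h overlapped it, and those of 24 h were below it. Relative to 0 h, the log2 change was 1.63 ± 0.06 (SE, adjusted p = 4.61e-12) at 1 h and -0.65 ± 0.07 (SE, adjusted p = 1.47e-06) at 24 h, when GSTU1, GSTU2, GSTU3, GSTU4 and GSTU6 were higher.

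**Figure D3:**
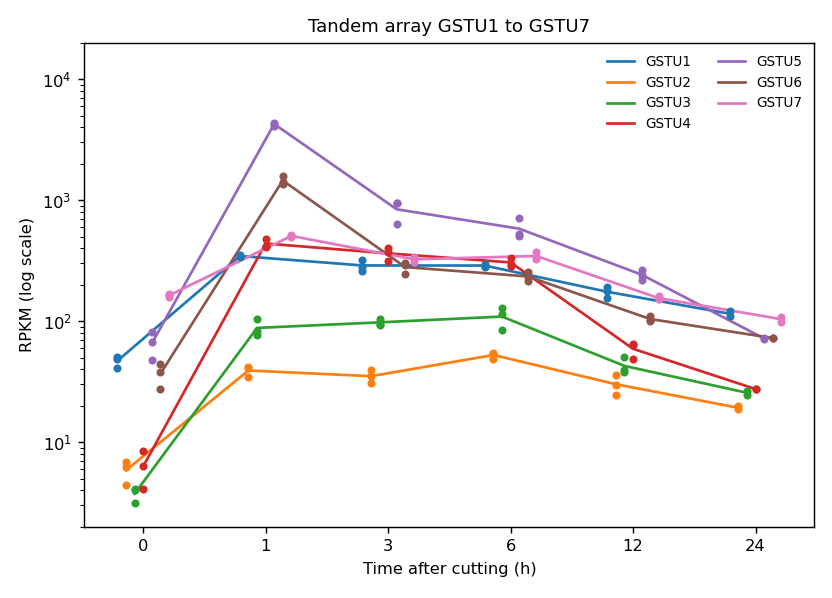
RPKM on a log scale of the 7 genes of the tandem array GSTU1 to GSTU7 by time after cutting, with 1 point per library and lines through the means. GSTU5 (4259 RPKM) and GSTU6 (1453 RPKM) peak at 1 h and drop by 3 h, while mean RPKM at 6 h, against 1 h, is 288 against 346 for GSTU1, 52.6 against 39.1 for GSTU2, 109 against 88.0 for GSTU3 and 306 against 438 for GSTU4.

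GSTU11 and GSTU12, a pair on chromosome 1, moved together. GSTU12 (AT1G69920) had 1.66, 2.60 and 1.64 RPKM at 0 h, then 72.2, 90.0 and 71.0 after 1 h, 206, 213 and 211 after 3 h, 204, 231 and 131 after 6 h, 36.0, 43.8 and 32.2 after 12 h, and 26.1 and 19.5 after 24 h. Its 3 h libraries differed little from one another and the 6 h libraries overlapped them, all far above the 0 h range. The log2 change was 6.17 ± 0.19 (SE, adjusted p = 6.71e-13) at 3 h and 3.01 ± 0.21 at 24 h. GSTU11 averaged 91.7 ± 12.7 RPKM at 3 h, against 1.45 ± 0.383 at 0 h (SD, n = 3 each), a log2 change of 5.25 ± 0.15 (SE, adjusted p = 2.57e-13).

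GSTU17, known from light, drought and abscisic acid responses, had the largest tau change, while its neighbour GSTU18 stayed low. GSTU17 (AT1G10370) had 3.16, 2.65 and 1.19 RPKM at 0 h, then 51.2, 33.6 and 44.4 after 1 h, 410.1, 379 and 419 after 3 h, 440.2, 456 and 473 after 6 h, 124, 117 and 149 after 12 h, and 21.1 and 21.4 after 24 h. GSTU18 (AT1G10360) had 3.72, 5.62 and 3.93 RPKM at 0 h, then 3.86, 4.67 and 4.98 after 1 h, 3.11, 4.21 and 4.36 after 3 h, 3.09, 2.25 and 5.51 after 6 h, 4.06, 4.77 and 4.78 after 12 h, and 2.06 and 2.44 after 24 h. Every later GSTU17 library lay above the 0 h libraries, with the 6 h libraries highest, whereas GSTU18 libraries overlapped those of 0 h up to 12 h and lay below them at 24 h. The log2 change at 6 h was 7.15 ± 0.19 (SE, adjusted p = 2.33e-13) for GSTU17 and -0.28 ± 0.21 for GSTU18. At 24 h the pair was called in opposite directions, GSTU17 at 2.79 ± 0.21 and GSTU18 at -0.72 ± 0.23 (SE, adjusted p = 0.0141). The GSTU18 call was lost without 0 h replicate 2 (-0.57, adjusted p = 0.0602) or without 24 h replicate 1 (-0.64, adjusted p = 0.0959).

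In the array of GSTU19 to GSTU23, the abundant gene GSTU19, a major tau enzyme with a broad substrate range, was higher and GSTU20 lower at 3, 6 and 12 h. GSTU19 (AT1G78380) had 598, 598 and 525 RPKM at 0 h, then 2294, 2209 and 2289 after 1 h, 2789, 2820.3 and 3173 after 3 h, 2610.1, 2741 and 3017 after 6 h, 1316, 1354 and 1544 after 12 h, and 678 and 648 after 24 h. GSTU20 (AT1G78370) had 50.1, 37.4 and 33.1 RPKM at 0 h, then 51.2, 20.1 and 25.7 after 1 h, 13.2, 12.2 and 8.93 after 3 h, 3.68, 2.42 and 2.71 after 6 h, 8.90, 18.3 and 9.93 after 12 h, and 53.7 and 51.7 after 24 h. GSTU19 libraries of all later times lay above the 0 h range, by little at 24 h, and GSTU20 libraries of 3, 6 and 12 h all lay below it and those of 24 h above it. The log2 change at 6 h was 2.28 ± 0.08 (SE, adjusted p = 2.57e-12) for GSTU19 and -3.38 ± 0.30 (SE, adjusted p = 1.62e-07) for GSTU20. At 24 h GSTU19 was at 0.21 ± 0.09 and GSTU20 at 0.40 ± 0.34, neither past the test. In the step to 24 h from 12 h, GSTU20 changed by 2.07 ± 0.34.

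GSTU22 rose from a low level. GSTU22 (AT1G78340) had 3.85, 2.76 and 0.435 RPKM at 0 h, then 8.42, 15.8 and 4.56 after 1 h, 35.0, 41.2 and 29.9 after 3 h, 89.6, 101 and 89.8 after 6 h, 42.2, 37.7 and 60.0 after 12 h, and 13.7 and 8.94 after 24 h. The 6 h libraries were the highest, and 0 h replicate 3 was the lowest of all. Its log2 change was 4.99 ± 0.42 (SE, adjusted p = 1.02e-07) at 6 h and 4.47 without 0 h replicate 3. GSTU23 stayed between 0.310 and 1.86 RPKM with no change past the test, and GSTU21 at 0 to 0.193 RPKM could not be tested.

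In the last array GSTU26 had its highest mean at 1 h, and GSTU24 and GSTU25 had theirs at 6 h. GSTU26 (AT1G17190) had 70.7, 66.6 and 50.5 RPKM at 0 h, then 571, 438 and 467 after 1 h, 187, 297 and 203 after 3 h, 73.1, 51.9 and 55.9 after 6 h, 123, 99.3 and 71.3 after 12 h, and 25.0 and 28.0 after 24 h. GSTU24 (AT1G17170) had 48.8, 44.9 and 23.1 RPKM at 0 h, then 145, 156 and 99.8 after 1 h, 323, 427 and 341 after 3 h, 777, 791 and 729 after 6 h, 343, 367 and 435 after 12 h, and 139 and 100.4 after 24 h. GSTU25 (AT1G17180) had 30.8, 25.1 and 2.67 RPKM at 0 h, then 73.9, 63.6 and 31.6 after 1 h, 115, 147 and 109 after 3 h, 643, 650.2 and 525 after 6 h, 209, 196 and 262 after 12 h, and 61.2 and 36.7 after 24 h. GSTU26 was high at 1 h and its 6 h libraries overlapped those of 0 h, at the time when GSTU24 and GSTU25, both known to act on the explosive TNT, were at their highest. GSTU26 changed by 2.96 ± 0.21 (SE, adjusted p = 1.02e-08) at 1 h and -0.05 ± 0.21 at 6 h, the second not past the test. GSTU24 changed by 1.80 ± 0.24 at 1 h and 4.33 ± 0.24 (SE, adjusted p = 6.67e-10) at 6 h, and GSTU25 by 1.90 ± 0.61 and 5.38 ± 0.61 (SE, adjusted p = 3.28e-06) at those times. At 24 h GSTU26 was lower (-1.20 ± 0.23, adjusted p = 4.56e-04) and GSTU24 and GSTU25 were higher (1.65 ± 0.27 for GSTU24 and 1.74 ± 0.68, adjusted p = 0.0422 for GSTU25). The lowest GSTU25 value was that of 0 h replicate 3, and without this library the log2 change was 0.91 (adjusted p = 0.0164) at 1 h, 4.39 at 6 h and 0.75 (adjusted p = 0.0709) at 24 h. The 24 h call was also lost without each of 10 other libraries in turn.

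**Figure D4:**
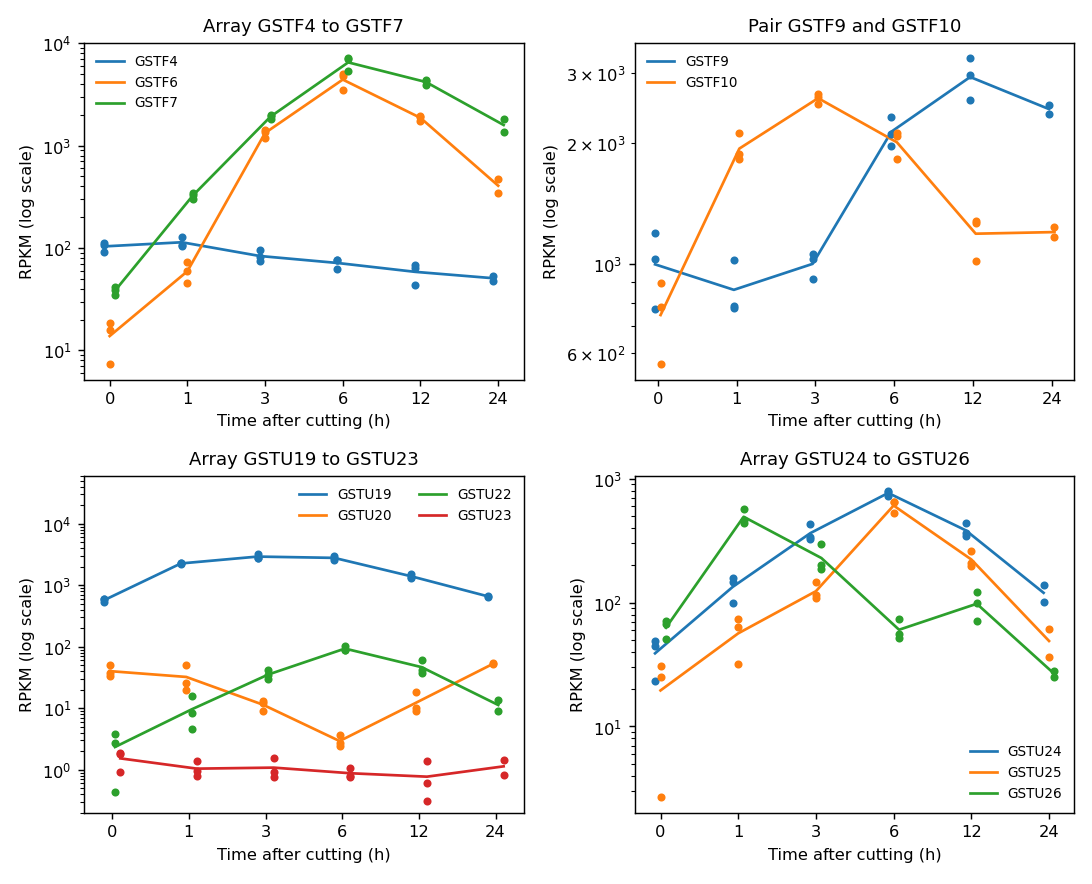
RPKM on a log scale by time after cutting for 4 arrays whose genes parted, with 1 point per library and lines through the means. At 6 h GSTF4 is lower while GSTF6 and GSTF7 are higher. GSTU20 is lower at 6 h while GSTU19 and GSTU22 are higher and GSTU23 has no change past the test. GSTF10 peaks at 3 h and GSTF9 at 12 h, and GSTU26 peaks at 1 h and GSTU24 and GSTU25 at 6 h.

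Neighbours were also compared within each library, by the log2 ratio of adjacent members in the 14 libraries after cutting against the 3 at 0 h (exact permutation test, two-sided, 680 splits, smallest p 0.00147, p adjusted over 14 pairs). Libraries of a time resemble one another and 0 h is 1 time of 6, so the splits treat as exchangeable libraries that are not, and these p-values are too small. Pairs of other genes were not put through this test, so no background share stands beside its count of called pairs. Since 93.2% of all tested genes changed over the course (F test), the count is not read as a trait of these arrays. By this test the ratio differed in 7 of 14 pairs. GSTU17 over GSTU18, for example, averaged 4.81 ± 1.70 after cutting (SD, n = 14), against -0.74 ± 0.50 at 0 h (SD, n = 3; exact permutation test). It was higher after cutting for GSTU17 over GSTU18 by 5.55 (adjusted p = 0.00686), for GSTU22 over GSTU23 by 3.71 (0.00686), for GSTU19 over GSTU20 by 3.20 (0.0343), for GSTU6 over GSTU7 by 2.11 (0.0103) and for GSTU4 over GSTU5 by 1.41 (0.0441). It was lower after cutting for GSTU2 over GSTU3 (-1.46, adjusted p = 0.00686) and for GSTU11 over GSTU12 (-0.69, adjusted p = 0.0165). The other 7 did not pass, with differences between -0.75 and 2.34. Among these were GSTF6 over GSTF7 (0.21, adjusted p = 0.669), GSTF9 over GSTF10 (-0.53, adjusted p = 0.532) and GSTU25 over GSTU26 (2.34, adjusted p = 0.232), of which the last 2 changed sign within the course. The call for GSTU4 over GSTU5 was lost on leaving out any 1 of the 14 libraries of 0, 3, 6, 12 or 24 h (adjusted p up to 0.190), and that for GSTU19 over GSTU20 on leaving out any 1 of 8 libraries, the 3 of 0 h among them (up to 0.150). The calls for GSTU6 over GSTU7 and GSTU11 over GSTU12 were lost without 0 h replicate 3 (adjusted p = 0.0972 each).

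As a description over the 6 time means of log2(RPKM + 1), courses of members in the same array had a median Pearson r of 0.78 over 36 pairs, with a range of -0.89 to 0.99. Most of these pairs came from the 7 genes of the array GSTU1 to GSTU7, so the median mainly describes that array. The median was 0.30 over the 300 pairs of the same class that do not share an array and 0.38 over 225 pairs between the classes. The most alike array neighbours were GSTU11 and GSTU12 (r = 0.99), whose coding sequences were 60.6% identical. GSTU20 and GSTU22 (r = -0.89) were 74.9% identical. All courses share the same 17 libraries.

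Among tau genes outside the arrays, GSTU9 had its main change late. GSTU9 (AT5G62480) had 8.43, 7.43 and 6.82 RPKM at 0 h, then 8.16, 12.4 and 8.88 after 1 h, 8.06, 10.1 and 8.77 after 3 h, 253, 264 and 229 after 6 h, 113, 123 and 131 after 12 h, and 65.6 and 65.9 after 24 h. The 1 and 3 h libraries overlapped those of 0 h, and the 6 h mean was 32.9 times the 0 h mean. Fitted log2 changes were 0.22 ± 0.12 at 3 h, not past the test, and 4.87 ± 0.12 (SE, adjusted p = 7.28e-14) at 6 h. The 1 h value (0.32 ± 0.12, adjusted p = 0.0277) passed the test, and the call was lost without 0 h replicate 2 (0.31, adjusted p = 0.0627), 0 h replicate 3 (0.26, adjusted p = 0.0995) or 1 h replicate 2 and in limma voom (0.31, adjusted p = 0.118). GSTU10 rose at 3 h (2.43 ± 0.15, adjusted p = 6.79e-10), to 24.0 ± 0.651 RPKM at 3 h, against 3.63 ± 0.247 RPKM at 0 h. GSTU8 had 293, 259 and 271 RPKM at 6 h, against 157, 139 and 113 RPKM at 0 h (1.02 ± 0.14, adjusted p = 1.15e-05), and its log2 change at 1 h was -0.45 ± 0.14, a call lost without 0 h replicate 1 or 1 h replicate 3 and after median centring. GSTU27 was lower at 1 h (-0.65 ± 0.22, lost without 1 h replicate 3 and after median centring) and higher at 24 h (0.88 ± 0.24, adjusted p = 0.00576), and without 24 h replicate 1 the second became 0.78 (adjusted p = 0.0551).

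The remaining tested members had smaller changes. GSTU13 was higher at 1 h (0.76 ± 0.08, adjusted p = 3.58e-07) and 3 h (0.74 ± 0.08) and lower at 12 h (-0.57 ± 0.08) and 24 h (-0.24 ± 0.09), the last call lost without 0 h replicate 1 or either 24 h library. Its mean was 304 ± 21.0 RPKM at 1 h, against 179 ± 11.9 RPKM at 0 h. GSTU16 was lower at 1 h (-0.53 ± 0.10, adjusted p = 2.47e-04) and higher at 12 h (0.35 ± 0.10), within 5.24 to 12.8 RPKM. Its 1 h call was lost after quantile normalization (-0.24, adjusted p = 0.0572). GSTU28 stayed at 0.378 to 1.51 RPKM with no change past the test. The 7 members under the filter were GSTF5, GSTF12, GSTF13, GSTF14, GSTU14, GSTU15 and GSTU21, with 4 to 37 reads each over all 17 libraries. Of these, GSTF14 was at 0.863 and 1.21 RPKM at 24 h, against 0.0979, 0.129 and 0.129 RPKM at 0 h. GSTF12 was at 0 in 15 of 17 libraries and at 0.981 RPKM in 12 h replicate 1, the library with the light-leaf markers, where the flavonoid enzyme CHS was at 7.41 RPKM, against 0.598 and 1.28 RPKM in the other 12 h libraries.

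Of the 19 members at least 2-fold higher at 1 h, 12 held TGACG in the promoter window shown above, and of the other 22 members 5 did. TTGAC was held by 15 of the 19 and by 10 of the 22. Of all promoters, 23.1% held TGACG and 50.5% held TTGAC. The 22 include the 7 members that could not be tested, so they are not all genes without a response. In the array of GSTU1 to GSTU7, 5 of 7 windows held TGACG, and all 7 genes are among the 19. The late gene GSTU9 held 2 copies of TGACG, and GSTU26, high at 1 h, held none. These counts were made after the values were seen and are a description.

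Genes that work with these enzymes were read from the same fit. Counts of each list stand against 18.2%, 27.6%, 30.2%, 34.4% and 36.2% of all tested genes higher and 54.7%, 39.3%, 37.1%, 27.8% and 23.2% lower at 1, 3, 6, 12 and 24 h. Of 14 xenobiotic response genes, 12, 14, 14, 11 and 8 were higher at 1, 3, 6, 12 and 24 h and 0, 0, 0, 1 and 2 were lower. The alkenal reductase AER was at 629 RPKM at 6 h, against 7.84 RPKM at 0 h (log2 change 6.16), and the glucosyltransferase UGT74E2 changed by 5.50 at 6 h. The cytochromes P450 CYP710A1 and CYP81D11 were lower at 24 h (-1.64 and -1.47). The median of this list stood 3.51 above that of all genes at 3 h, against 2.53 for tau and 2.12 for phi members.

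Of 8 tested genes for conjugate transport and breakdown, 6, 7, 8, 5 and 4 were higher at 1, 3, 6, 12 and 24 h and 2, 0, 0, 1 and 1 lower. GGP1, a peptidase that trims glutathione conjugates, was at 2154 RPKM at 1 h, against 102 RPKM at 0 h (log2 change 4.39), and the transferase gene GGT1 changed by 3.14 at 1 h and -0.91 at 24 h. The vacuolar conjugate pumps ABCC1 and ABCC2 changed by 0.49 and 1.00 at 6 h, and ABCC4 by -0.86 at 1 h. Of 7 glutathione supply genes, 4, 5, 5, 4 and 4 were higher and 3, 1, 1, 0 and 1 lower at these times. The synthesis genes GSH1 and GSH2 changed by 1.31 at 6 h and 1.69 at 3 h, and the cytosolic glutathione reductase GR1 by 1.96 at 6 h, while the transporters CLT2 and CLT3 were lower at 1 h (-0.72 and -0.61).

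Counts for the 12 genes of the other glutathione transferase classes were near those shares of all genes or below them, apart from lower calls at 3 and 6 h, with 3, 4, 3, 3 and 2 higher and 7, 7, 7, 3 and 2 lower at 1, 3, 6, 12 and 24 h. GSTL1 of the lambda class changed by 3.63 at 6 h and the dehydroascorbate reductase DHAR2 by 2.04, while GSTT2 was lower at 1 h (-1.39) and DHAR3 at 3 h (-0.96). Of the 7 lower at 1 h, GSTL3, GSTT1, GSTZ2 and TCHQD lost their call after median centring. Of 9 TGA factors and partners, 2, 3, 2, 1 and 2 were higher and 6, 4, 1, 5 and 3 lower at these times, so the lower counts at 1 and 3 h were near the shares of all genes, the 6 h count was below its share and the 12 h count above it. The transcription factor ANAC032 changed by 2.64 at 1 h and TGA3 by 0.67 at 6 h, whereas TGA1 and TGA4 were lower at 1 h (-1.98 and -1.45).

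Of 5 camalexin genes 2, 4, 5, 4 and 3 were higher and none lower at these times. PAD3, the last enzyme of the path, was at 209 RPKM at 6 h, against 0.465 RPKM at 0 h (log2 change 7.14), the time at which GSTF6 was highest. CYP71A12 changed by 6.64 and CYP71A13 by 2.72 at 6 h. Of 8 tested aliphatic glucosinolate genes 5, 4, 6 and 2 were lower at 1, 3, 6 and 12 h and 6 were higher at 24 h. The lower counts at 1, 3 and 12 h were near the shares of all genes, and those at 6 h (lower) and 24 h (higher) were above them. At 1 h, CYP79F2, CYP83A1, SOT18 and UGT74C1 lost their call after median centring. CYP83A1 and CYP79F2 changed by -2.44 and -2.39 at 6 h, and BCAT4 by 1.51 at 24 h. GSTU20 was lower at 6 h too, as was GSTF11, which held only 1, 3 and 1 recovered reads in the 6 h libraries. The sulfotransferase SOT17 was higher (3.22 at 3 h). Of 11 anthocyanin genes only 3 were tested, of which CHI was lower at 24 h (-3.28), F3H higher at 24 h (0.83) and CHS higher at 12 h (1.62), where 12 h replicate 1 held the high value given above. Without that library CHS did not pass the filter, and the F3H call was lost after quantile normalization (0.60, adjusted p = 0.0570).

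**Figure D5:**
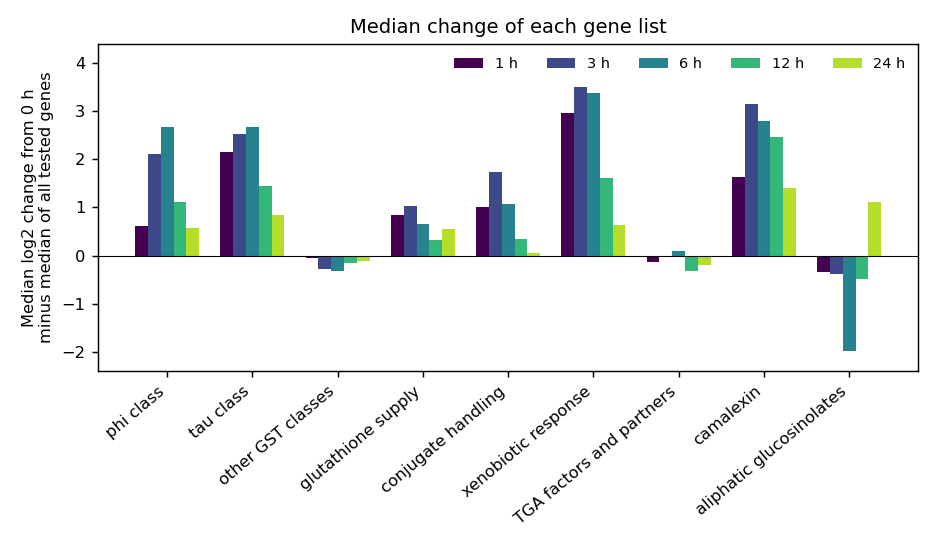
Median log2 change from 0 h minus the median of all tested genes, for the phi and tau classes and 7 lists of related genes, as bars for 1, 3, 6, 12 and 24 h. The xenobiotic response list is highest at 3 h (3.51), the other glutathione transferase classes stay between -0.32 and -0.04, and the aliphatic glucosinolate list is at -1.99 at 6 h.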

How the data were processed

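Etiolated Arabidopsis hypocotyls were sequenced at 6 times after cutting, in 17 libraries grouped by the labelled time. The authors deposited RPKM values for 28642 genes in 1 table, made on TAIR 10 per the submitters' processing notes; the aligner, the counter, its strand setting and its treatment of multiply mapping reads are not stated in the sources used here.

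Values below were computed from these RPKM. Since RPKM rises in steps of 1 read, whole reads and library totals were recovered for 24834 of 24834 genes above 0 (tolerance 0.01 reads), and 98.7% to 99.0% of mapped reads lay on listed genes. The annotated length was used for 3496 of these genes. For the rest, the shortest length from 100 to 20000 bases that gave whole reads was taken. Recovered reads of scarce genes are thus the smallest that fit, and full recovery is no check on them. The deepest library had 2.69 times the reads of the shallowest, and the floor of 3 reads covers counting error only. limma 3.58.1 in R 4.3.3 was fitted to log2(RPKM + 1), which understates changes of low genes, over 19656 genes of at least 1 RPKM in at least 2 libraries, with all 6 times in 1 fit, intensity trend and robust moderation, and Benjamini-Hochberg adjustment over all genes (threshold 0.05). Neighbour ratios used exact two-sided permutation. Both tests were tested on simulated data first. The simulated ratios were drawn independently for each library, so they could not show the effect of libraries of a time resembling one another. Sequences, arrays and overlaps came from RefSeq TAIR10.1 by locus identifier (41 of 41 matched) with Python 3.11.15 and Biopython 1.88; it may differ from the authors' annotation.

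Members and gene lists were chosen with earlier results of these data known. All 41 members are named or counted. Values in every library are given for the 3 largest rises and falls of each class, the most abundant member of each class and array members called in opposite directions, and for further members chosen after their values were seen (GSTF10, GSTF8, GSTU4, GSTU6, GSTU9 and GSTU22 among them). Alternatives covered the pseudocount, the filter, median centring, quantile normalization, a replicate block, fits on the times compared, moderation, summed similar genes and leaving out each library. limma voom on recovered reads was added, chosen after seeing the data. Same-numbered libraries were not treated as paired, since their deviations correlated above 0.1 in only 16 of 40 pairs. Even so, 13 of 17 libraries correlated best with their own number, and the replicate block is therefore given as an alternative.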

Additional observations from a re-analysis of the deposited data

How the results depend on the processing

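Of the 132 called member changes, 124 to 132 kept call and direction under 10 other settings and 126 to 132 when 1 library was left out, and none turned round as a call. The GSTF3 call at 1 h and the GSTU25 call at 24 h were lost most often. Depth limits the 7 members with 4 to 37 reads in all.

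The phi median relative to all genes moved at 1 h to 0.68 (pseudocount 0.1), 0.35 (no filter), 1.22 (filter of 5 RPKM), 0.36 (quantile normalization) and 0.69 (voom), at 3 h to 0.11 (no filter), 2.58 (5 RPKM) and 2.35 (quantile), and at 6 h to 1.14 (no filter). At 12 h it was 1.27 and 1.19 (pseudocounts 0.1 and 0.5), 0.65 (no filter), 1.31 (5 RPKM), 1.16 (quantile) and 1.34 (voom), and at 24 h 0.24 (no filter), 0.88 (5 RPKM) and 0.69 (quantile). The tau median was 2.73 and 2.63 (pseudocounts 0.1 and 0.5), 2.13 (no filter) and 2.78 (voom) at 3 h, 2.33 (no filter) and 2.51 (quantile) at 6 h, 1.20, 1.81 and 1.52 (no filter, 5 RPKM, quantile) at 12 h and 0.62, 0.92 and 0.92 (in that order) at 24 h. Members lower at 1 h numbered 1 after median centring and 2 in the fit on those times alone, and at 3 h 2 after quantile normalization and 3 in the fit on those times alone. Apart from the filter, whose construction admits or removes low genes, the cause was not tested.

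With the replicate block, 130 of 132 calls were kept, those of GSTF3 at 1 h and GSTU25 at 24 h were lost and 5 were gained; 3 members were lower at 3 h and the phi median at 24 h was 0.49. Same-numbered libraries were not treated as paired (r from -0.17 to 0.34, above 0.1 in 16 of 40 pairs), and 13 of 17 libraries correlated best with their own number, a hint from the data and not the design.

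Leaving out 1 library gave 1 to 4 lower members at 1 h, 1 to 2 at 3 h and 3 to 5 at 24 h. The phi median ranged from 0.56 to 0.72, 2.02 to 2.23, 1.00 to 1.31 and 0.39 to 0.72 at 1, 3, 12 and 24 h, and the tau median from 1.84 to 2.37, 2.42 to 2.57, 2.55 to 2.72, 1.27 to 1.58 and 0.67 to 0.89 at 1, 3, 6, 12 and 24 h. Ratio differences ranged from -0.18 to 0.52 for GSTF6 over GSTF7 and from -0.73 to 0.31 for GSTU24 over GSTU25, both reversed without 0 h replicate 3 and never called. They ranged from 1.14 to 1.65 for GSTU4 over GSTU5, 1.93 to 2.24 for GSTU6 over GSTU7, -0.74 to -0.60 for GSTU11 over GSTU12 and 3.00 to 3.46 for GSTU19 over GSTU20.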
